A study of Rattus norvegicus with 8 samples.

Results

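The connexin genes encode the proteins of gap junctions, and they were chosen here as a family: 9 connexins of astrocytes, oligodendrocytes, vessels and neurons (Gja1, Gja4, Gja5, Gjb1, Gjb2, Gjb6, Gjc1, Gjc3 and Gjd2), each taken as the mean of the probe sets that the platform annotation assigns to that symbol alone. Of the 9 genes, 7 were matched, each to a single probe set, among 14506 genes measured. Gjc1 and Gjc3 were not matched by symbol or Entrez number and are not analysed here.

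RNA came from the dorsal ipsilateral lumbar spinal cord of adult male Wistar rats at day 14 after transection of the L5 spinal nerve. All animals carried this injury and an intrathecal pump, which delivered the histone deacetylase inhibitor (HDACI) MS-275, selective for class I enzymes, at 30 nmol/d to 4 rats and its dimethyl sulfoxide vehicle to the other 4. Each animal's RNA was hybridised to a Rat Gene 1.0 ST array, and neither uninjured nor contralateral cord was among these arrays, so no value here is an effect of the injury. In the paper's main experiments delivery began days before the injury, and the start for the arrayed animals is not stated separately. The comparison asks whether the inhibitor was accompanied by different connexin transcript levels in injured cord.

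Connexins assemble in the membrane into hemichannels, and hemichannels of adjacent cells dock into gap junctions that pass ions and small metabolites directly between cells. In the cord, astrocytes are joined through connexins Cx43 (Gja1) and Cx30 (Gjb6), with Cx26 (Gjb2) in astrocytes and strongly in the leptomeninges. Oligodendrocytes and Schwann cells use Cx32 (Gjb1), arterial endothelium Cx37 (Gja4) and Cx40 (Gja5), and neurons form electrical synapses with Cx36 (Gjd2). Astrocyte gap junctions and open hemichannels have been studied as routes by which glia influence pain after nerve injury.

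Signals are the authors' RMA values on the log2 scale, on which a difference of 1 is a doubling. They are relative within an array. Levels of different genes were not compared, except with background and as differences between astrocyte connexins within each array. As a guide to background, 1105 olfactory receptor genes, which the cord is not known to use, had a median signal of 5.22 and a 95th percentile of 6.93. All 7 connexins lay above that percentile. Over all arrays, 22 olfactory receptor genes still had a higher mean than Gja5, 8 than Gjb2, and 1 each than Gja4 and Gjd2. Defining markers of cord cells were well above that percentile, such as Gfap of astrocytes (12.64 ± 0.12, SD, n = 4, in vehicle cord) and Snap25 of neurons (13.61 ± 0.04, SD, n = 4). Array medians ran from 7.95 to 7.98 and Pearson correlations between arrays, across probe sets, from 0.993 to 0.997, and no array repeated another. In bulk tissue, fewer cells of a type and less RNA per cell cannot be told apart.

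Of the 7 connexins, Gjb2 alone rose with HDACI at an unadjusted p under 0.01 (limma), and none fell. In the same fit 1.46% of all genes passed in either direction, 0.607% of them as rises and 0.855% as falls, and a count of 1 says nothing about the family. No connexin passed adjustment over all genes, nor did any of the 14506 genes in this fit (smallest adjusted p = 0.610 from limma). At an unadjusted p under 0.05 there were 2 connexins, Gjb2 and Gjd2, where 7.75% of all genes passed. The log2 fold changes of the 7 ran from -0.14 to 0.52 with a median of 0.03, beside a median of -0.01 over all genes. They were above 0 in 4 of 7, against 42.1% of all genes.

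**Figure D1:**
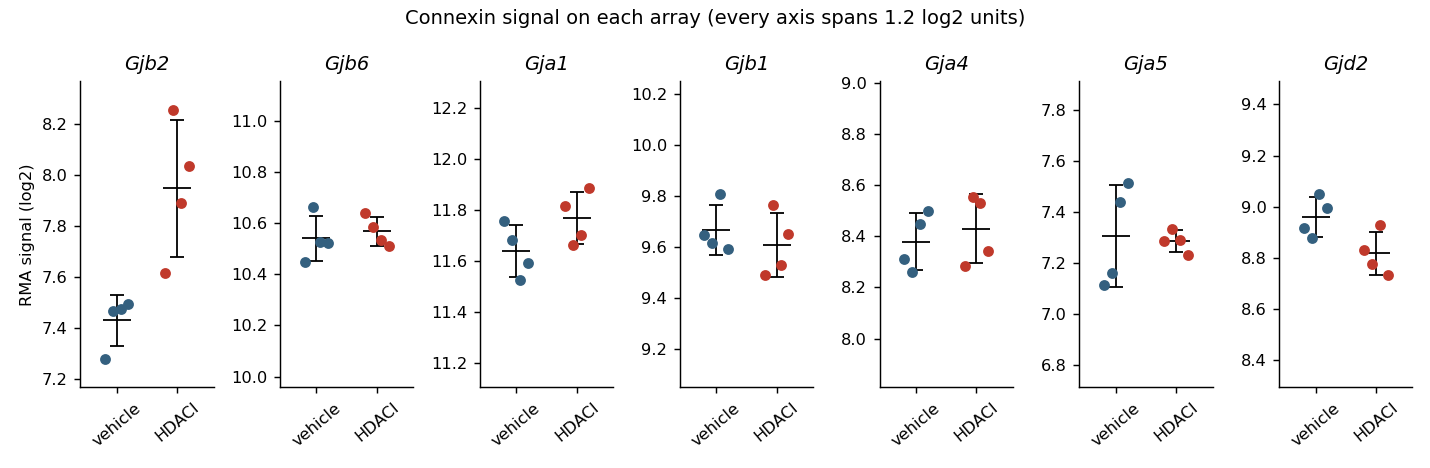
RMA signal (log2, vertical axis) of the 7 connexins on each of 8 arrays, vehicle in blue and HDACI in red, with mean and SD (n = 4 each). Each axis spans the same range but has its own level. Gjb2 is the panel in which every HDACI point lies above every vehicle point.

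Cx26 (Gjb2) is a connexin of the leptomeninges, of astrocytes and of sensory and barrier epithelia. Its signal was 7.61, 8.25, 7.89 and 8.04 on HDACI arrays 1 to 4 and 7.28, 7.47, 7.47 and 7.50 on vehicle arrays 1 to 4. The lowest HDACI array, replicate 1, stood 0.12 above the highest vehicle array, and the groups did not overlap, a separation seen in 5.02% of all genes and, in this direction, in 1.42%. The means were 7.95 ± 0.27 (SD, n = 4) and 7.43 ± 0.10 (SD, n = 4). The difference between the means, HDACI minus vehicle on the log2 scale, was 0.52 with a standard error (SE) of 0.12 and a 95% confidence interval (CI) from 0.25 to 0.79, or a ratio of 1.43 with an interval from 1.19 to 1.73. The unadjusted p was 0.00174 and the adjusted p 0.610 (limma), and a two-sided exact permutation test over the arrays gave p = 0.0286, its smallest possible value with 4 and 4. By unadjusted p, Gjb2 was in place 30 of 14506 genes. It also stands in the study's own list, which was drawn from these arrays at the same unadjusted threshold, so this rise is not independent of that list.

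The size of the Gjb2 rise varied with single arrays, and its sign did not. Without HDACI replicate 1, the lowest of its group, the log2 fold change was 0.63, and without HDACI replicate 2, the highest, it was 0.42, and the unadjusted p stayed under 0.01 in limma when any of the 8 arrays was left out (at most 0.00632). The call was lost without moderation of the variances (unadjusted p = 0.0112, adjusted p = 0.549).

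**Figure D2:**
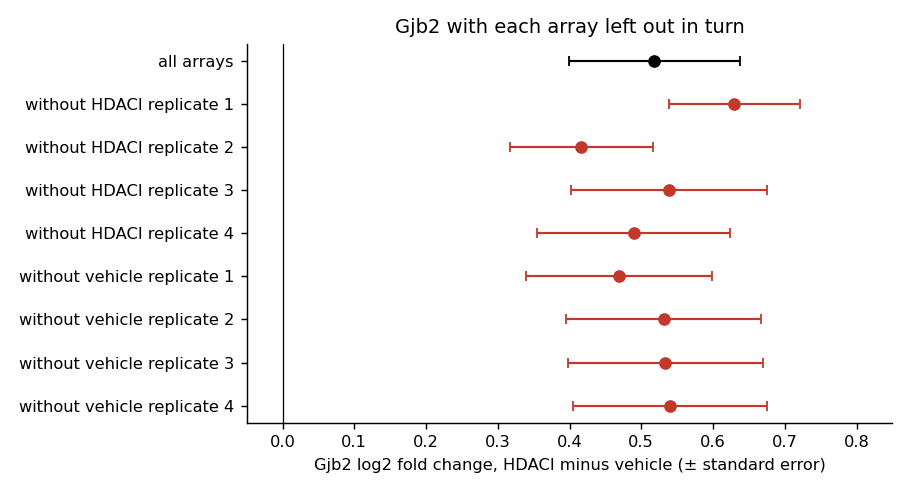
Log2 fold change of Gjb2 (horizontal axis, HDACI minus vehicle) with its standard error, for all arrays (black) and with each array left out in turn (red). The 8 red points lie between 0.42 and 0.63.

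Cx30 (Gjb6), with Cx43 the main connexin of mature astrocytes, read 10.64, 10.59, 10.53 and 10.51 with HDACI and 10.45, 10.66, 10.53 and 10.52 with vehicle. These ranges overlapped almost wholly. The log2 change was 0.03 (SE 0.05, 95% CI -0.10 to 0.15; unadjusted p = 0.632 from limma), an interval that allows a ratio between 0.936 and 1.11.

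Cx43 (Gja1), which couples astrocytes and also leptomeningeal cells, read 11.82, 11.66, 11.70 and 11.89 with HDACI and 11.76, 11.68, 11.52 and 11.59 with vehicle. HDACI replicates 1 and 4 lay above every vehicle array, while HDACI replicates 2 and 3 lay among them. The log2 change was 0.13 (SE 0.07, 95% CI -0.02 to 0.28; unadjusted p = 0.0873 from limma; exact permutation p = 0.143). Leaving out each array in turn gave 0.09 to 0.17. On HDACI replicate 2, Gjb2 had its highest and Gja1 its lowest HDACI value.

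Whether these astrocyte connexins changed unequally was tested on their differences within each array. Gjb2 minus Gjb6 was higher with HDACI by 0.49 on the log2 scale (exact permutation p = 0.0571; 0.129 after Benjamini-Hochberg adjustment over 3 pairs). The array differences were -3.03 to -2.33 with HDACI and -3.20 to -3.03 with vehicle, with HDACI replicate 1 just below the highest vehicle array. Gjb2 minus Gja1 was higher by 0.39 (exact permutation p = 0.0857; adjusted p = 0.129). Gjb6 minus Gja1 had a difference of -0.10 (exact permutation p = 0.314; adjusted p = 0.314). None of the 3 pairs passed, so a change of Gjb2 unlike that of its relatives is not shown. Nor is it excluded, since a single pair at the smallest possible p would not pass after this adjustment.

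Gjb2 and Gjb6 lie side by side on rat chromosome 15, with no other protein-coding gene of the GRCr8 RefSeq annotation between them, and Gja1 lies on chromosome 20. Promoter sequences were taken from RefSeq (GRCr8), where 8 of the 9 connexins were found, and those of the astrocyte connexins are shown because Gjb2 was the one member called and Gjb6 is its neighbour. Each runs 5′ to 3′ from 250 bases before to 50 bases after an annotated transcript start. Gjb6 has a second start in the table and the more upstream is printed. Capitals mark GGGCGG or its reverse complement CCGCCC (the GC box, bound by Sp1) and TTAAAA or its reverse complement TTTTAA, an A/T run chosen after the sequences were seen.
Gjb2, chr15:35381904-35382203, minus strand: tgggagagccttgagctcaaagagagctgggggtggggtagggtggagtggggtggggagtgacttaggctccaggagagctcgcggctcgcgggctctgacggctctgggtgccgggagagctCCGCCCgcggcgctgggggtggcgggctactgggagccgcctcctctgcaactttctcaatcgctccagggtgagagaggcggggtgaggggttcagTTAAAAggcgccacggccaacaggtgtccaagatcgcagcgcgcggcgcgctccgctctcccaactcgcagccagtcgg
Gjb6, chr15:35410089-35410388, minus strand: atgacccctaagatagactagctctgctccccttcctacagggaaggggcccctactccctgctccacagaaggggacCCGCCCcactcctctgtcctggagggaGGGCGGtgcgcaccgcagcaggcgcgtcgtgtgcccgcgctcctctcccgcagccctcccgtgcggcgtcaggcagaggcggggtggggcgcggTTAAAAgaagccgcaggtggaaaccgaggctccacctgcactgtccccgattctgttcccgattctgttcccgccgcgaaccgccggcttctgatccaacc
Gja1, chr20:36302314-36302613, plus strand: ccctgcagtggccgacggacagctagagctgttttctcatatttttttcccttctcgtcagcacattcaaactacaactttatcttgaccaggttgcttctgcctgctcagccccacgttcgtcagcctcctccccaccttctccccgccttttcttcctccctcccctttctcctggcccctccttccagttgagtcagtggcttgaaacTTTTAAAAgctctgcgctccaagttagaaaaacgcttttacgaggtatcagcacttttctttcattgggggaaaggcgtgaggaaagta
The Gjb2 window and the printed Gjb6 window were alike in composition, with 68.0% and 67.0% G or C and 25 CpG dinucleotides each. The median of 33469 promoters was 51.7% and 7. At its other start, not printed, Gjb6 was unlike Gjb2, with 52.3% G or C, 5 CpG dinucleotides, 1 GC box and no A/T run. The Gja1 window had 50.3% and 10. Among members not printed, Gja4 had 65.3% and 19, and Gjd2 62.0% and 20, so a high content was not particular to Gjb2 and Gjb6. Each of the 3 printed windows holds the A/T run on the sense strand ahead of the start. It begins 29 bases before the start in Gjb2, 51 in Gjb6 and 37 in Gja1, and in Gja1 the reverse form overlaps it. Among members not printed, Gja5 also has the run on the sense strand, 57 bases before the start. Gjb1 and Gjd2 hold only its reverse form, and Gja4 and Gjc3 hold neither. The run occurs on either strand in 21.1% of all promoters of this length, and on the sense strand beginning 45 to 20 bases before the start in 1.23%. Gjb2 and Gja1 have it in that narrower range, and Gjb6 does not. The share with the run anywhere ahead of the start on the sense strand was not counted. As the run was chosen after the sequences were seen, these shares do not test it. The Gjb2 window holds 1 GC box, the printed one of Gjb6 holds 2 and that of Gja1 none, beside 33.1% of all promoters with at least 1. These matches are descriptions of letters, and binding or acetylation at these windows was not measured here.

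Cx32 (Gjb1), which lets small molecules pass between the layers of myelin, read 9.49, 9.77, 9.53 and 9.65 with HDACI and 9.65, 9.62, 9.81 and 9.59 with vehicle. The ranges overlapped. The log2 change was -0.06 (SE 0.07, 95% CI -0.22 to 0.10; unadjusted p = 0.447 from limma). Over 9 measured oligodendrocyte markers, such as Mbp and Mog of myelin, none passed and the median was 0.02.

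Cx37 (Gja4), found in arterial endothelium, read 8.29, 8.56, 8.53 and 8.34 with HDACI and 8.31, 8.26, 8.45 and 8.50 with vehicle. Its log2 change was 0.05 (SE 0.08, 95% CI -0.13 to 0.23; unadjusted p = 0.537 from limma). Cx40 (Gja5), which shares that endothelium, read 7.29, 7.34, 7.29 and 7.23 with HDACI and 7.11, 7.16, 7.44 and 7.51 with vehicle. All HDACI values of Gja5 fell inside the vehicle range, and its log2 change was -0.02 (SE 0.09, 95% CI -0.22 to 0.18; unadjusted p = 0.817 from limma). Of 9 measured endothelial markers, such as Cldn5 of the blood-brain barrier, none passed, with a median of 0.05.

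Cx36 (Gjd2), the channel of neuronal electrical synapses, read 8.83, 8.78, 8.93 and 8.73 with HDACI and 8.92, 8.88, 9.05 and 8.99 with vehicle. HDACI replicate 3 lay within the vehicle range and the other HDACI arrays below it. The log2 change was -0.14 (SE 0.06, 95% CI -0.27 to -0.01), a ratio of 0.906. The unadjusted p of 0.0336 missed the 0.01 threshold (adjusted p = 0.628 from limma; exact permutation p = 0.0857). With each array left out in turn the log2 fold change ran from -0.18 to -0.11. All 8 neuronal markers had log2 fold changes below 0, none passed, and their median was -0.06, while 42.1% of all genes lay above 0. Their mean signal ran from 11.36 to 11.62 with HDACI and from 11.55 to 11.65 with vehicle, and their part in the Gjd2 value was not tested.

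**Figure D3:**
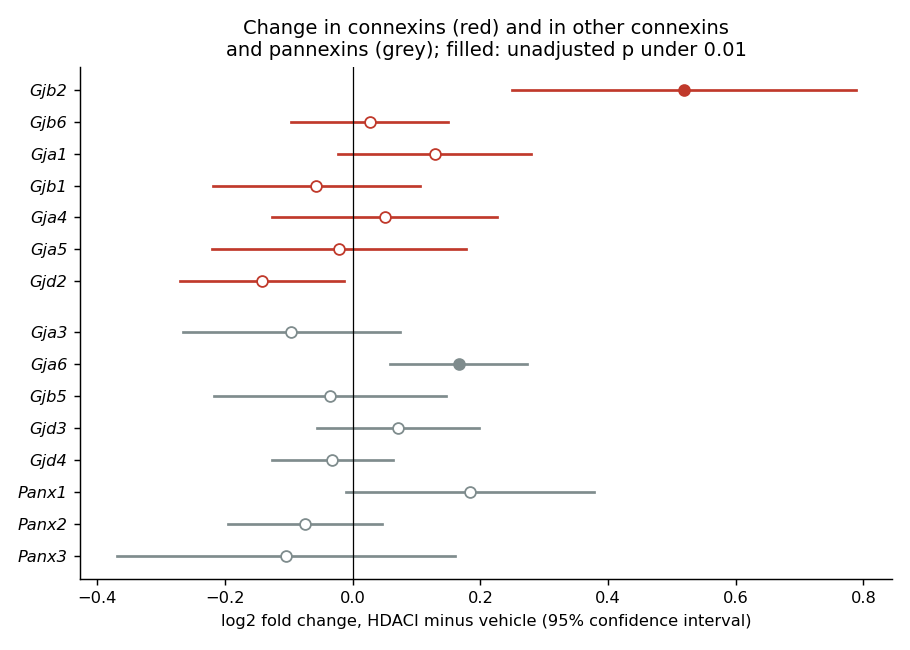
Log2 fold change (horizontal axis, HDACI minus vehicle) with 95% confidence interval for the 7 connexins (red) and for 5 other connexins and 3 pannexins (grey), with filled points for an unadjusted p under 0.01. Gjb2 at 0.52 and Gja6 at 0.17 are the filled points, and the interval of Gjd2 ends at -0.01.

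Of 11 further connexins, 5 had a probe set. Cx33 (Gja6), a testis connexin, rose by 0.17 on the log2 scale (SE 0.05, unadjusted p = 0.00664, adjusted p = 0.610 from limma). It read 7.08, 6.97, 7.12 and 7.11 with HDACI and 6.95, 6.84, 6.92 and 6.92 with vehicle, without overlap. Such a separation was seen in 5.02% of all genes and, in this direction, in 1.42%, while 0.607% of all genes passed as rises. The vehicle mean of Gja6, 6.91, lay just under the 95th percentile of the olfactory receptors, which was taken over all arrays. Its HDACI mean was 7.07, and 47 of 1105 olfactory receptor genes had a higher mean over all arrays. The signal is thus near background and not shown to stand clear of it. The call was lost when HDACI replicate 1, 3 or 4 or vehicle replicate 2, 3 or 4 was left out. The unadjusted p then ran from 0.0119 to 0.0222 (limma). The other 4 were the lens connexin Gja3 (-0.10), the epidermal connexin Gjb5 (-0.04), Gjd3 (0.07) and Gjd4 (-0.03), and none passed. Gja3, Gjd4 and Gja6 stood under the olfactory 95th percentile in vehicle cord.

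Pannexins form single-membrane channels that release ATP and resemble hemichannels in topology without close sequence kinship. None of the 3 passed. Panx1, the widely expressed pannexin, read 8.16, 8.31, 8.38 and 8.20 with HDACI and 7.86, 8.22, 8.02 and 8.22 with vehicle, a log2 change of 0.18 (SE 0.09, unadjusted p = 0.0613 from limma). Without vehicle replicate 1, its lowest array, it was 0.11 (unadjusted p = 0.167). Panx2, the neuronal form, had -0.07 and Panx3, a form of bone and cartilage that is dim here, -0.10.

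Of 18 proteins that bind, anchor or phosphorylate connexins, 14 were measured and none passed at an unadjusted p under 0.01, with log2 fold changes from -0.17 to 0.36 and a median of 0.05. At an unadjusted p under 0.05 there were 3, where 7.75% of all genes passed. None of the 14 passed adjustment (smallest adjusted p = 0.628 from limma). Wwp1, a ubiquitin ligase, had -0.17 (unadjusted p = 0.0326), Ccn3, a matricellular protein that binds Cx43, 0.36 (unadjusted p = 0.0343) and drebrin (Dbn1), which links Cx43 to actin, -0.10 (unadjusted p = 0.0389), all from limma. HDACI replicate 2 read 9.28 for Ccn3, its group otherwise lay between 8.58 and 8.74, and the log2 change was 0.20 without that array. The gap junction scaffold Tjp1 had 0.06 and caveolin 1 (Cav1) 0.22, which was 0.38 without HDACI replicate 1 (unadjusted p = 0.00418 from limma) and 0.09 without HDACI replicate 2 (unadjusted p = 0.516).

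Because Gjb2 belongs to the leptomeninges as well as to astrocytes, marker lists for both are given beside it. Of 9 measured astrocyte markers none passed, with a median of 0.05, and their mean signal ran from 11.74 to 11.84 with HDACI and from 11.71 to 11.84 with vehicle. Of 12 measured leptomeningeal fibroblast markers none passed, 9 lay above 0 and the median was 0.17. Their mean signal was 8.94, 9.84, 9.22 and 9.18 on HDACI arrays 1 to 4 and 9.18, 9.45, 8.98 and 9.06 on vehicle arrays 1 to 4. HDACI replicate 2 was thus highest both on this list and for Gjb2, and HDACI replicate 1 was lowest of its group on both. This rank of HDACI replicate 2 was not particular to leptomeningeal markers. It was also the highest array on the oligodendrocyte, endothelial, mural and, barely, microglial lists. On the astrocyte list it was not the highest, and on the neuronal list it was the lowest. Vehicle replicate 2 stood above 3 HDACI arrays on this list. Among the markers, Igf2 had a log2 change of 0.47 (SE 0.22, unadjusted p = 0.0558 from limma; 0.31 without vehicle replicate 1) and the fibroblast proteoglycan Dcn -0.36 (SE 0.43), so members of the list lay on both sides of 0. The part of these cells in the Gjb2 value was not tested.

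Markers of Schwann cells, the myelinating cells of peripheral nerve, differed far more between arrays than between groups. Their mean over 4 genes was 7.72, 9.38, 8.72 and 7.58 with HDACI and 9.11, 9.11, 7.55 and 8.21 with vehicle. HDACI replicates 2 and 3 and vehicle replicates 1 and 2 were thus the high arrays. HDACI replicate 2 was highest here as it was for Gjb2 and for several other marker lists. The part of these cells in the Gjb2 value was not tested.

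**Figure D4:**
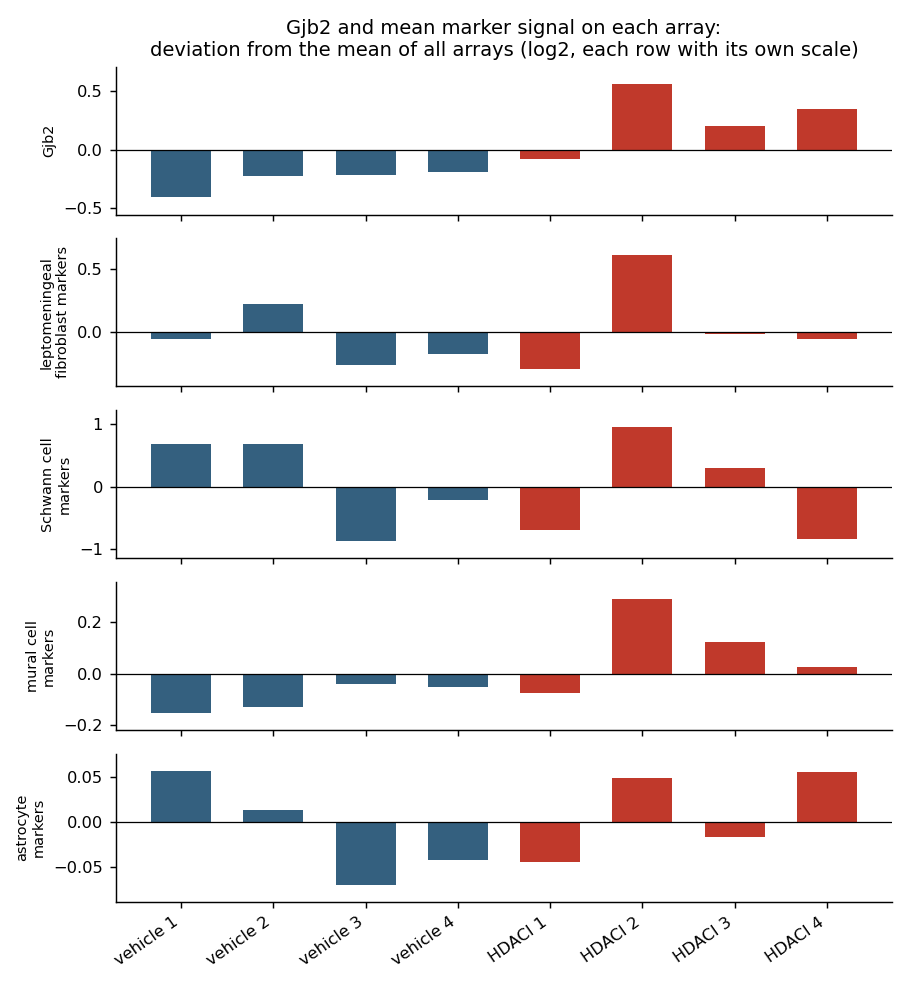
Gjb2 signal and the mean signal of 4 marker lists on each of 8 arrays, as deviation from the mean of all arrays (log2, vertical axes with separate scales), vehicle in blue and HDACI in red. HDACI replicate 2 is highest in the Gjb2, leptomeningeal, Schwann cell and mural rows, while the Schwann cell row is also high on vehicle replicates 1 and 2. That array is also highest on lists not drawn, such as the oligodendrocyte and endothelial markers.

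Of 9 mural cell markers only desmin (Des), an intermediate filament of muscle and pericytes, passed, where 0.607% of all genes passed as rises. Its log2 change was 0.67 (SE 0.11, unadjusted p = 1.32e-04, adjusted p = 0.610 from limma). Like Gjb2, desmin stands in the study's own list from these arrays, so its rise is not independent of that list. For desmin the paper also reported a rise by qRT-PCR on an independent cDNA batch, which was not examined here. Over the 9 markers 8 lay above 0 and the median was 0.11. Mural markers had a mean signal of 9.19 to 9.56 with HDACI and 9.11 to 9.23 with vehicle. Desmin was also among the 5 genes whose signal most resembled that of Gjb2 once each group's mean was taken off, with a Pearson correlation of 0.967 over 8 arrays. The others were Prss23 (0.984), a secreted protease, Fcmr (0.981), an Fc receptor for IgM, Plekhf2 (0.974), and Cpz (0.966), a carboxypeptidase of the matrix. These are the highest of 14505 correlations, each resting on 8 arrays that share HDACI replicates 1 and 2 as extremes of Gjb2, and are a description. The log2 fold changes of Prss23 (0.13), Fcmr (0.17), Plekhf2 (-0.02) and Cpz (0.09) lay between -0.02 and 0.17.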

How the data were processed

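Total RNA of the dorsal ipsilateral cord was hybridised to Affymetrix Rat Gene 1.0 ST arrays, 4 from HDACI- and 4 from vehicle-treated rats, grouped by the sample titles. As deposited, the values are log2 signals per probe set. To make them, the authors applied RMA in the oligo package of R (background correction, quantile normalization, summary per probe set), with versions not given in the sources used here.

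Symbols of the platform annotation were updated by Entrez number through RefSeq (GRCr8), and 15310 of 29214 probe sets carried a single symbol. Probe sets were averaged per gene, and HDACI was compared with vehicle by limma 3.58.1 (lmFit, eBayes) under R 4.3.3 without filter, block or weights. Residual degrees of freedom were 6, with 3.36 added by the prior. Two-sided p values were adjusted over 14506 genes (Benjamini-Hochberg). The thresholds were 0.05 for adjusted and, following the study, 0.01 for unadjusted p values. Permutation tests were exact over all 70 assignments of arrays. The number of arrays limits the precision, with a median SD within groups of 0.09. The fit was tested on simulated data.

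The members and lists were chosen with earlier results of these data known. The text names all members, the measured other connexins and pannexins, up to 3 genes per list with the smallest p, and for each called member the 5 genes most correlated with it after group means were removed. Dcn, Cldn5, Tjp1, Cav1, Snap25 and Ocln were chosen after their values were seen. Tried as alternatives were trended and robust eBayes, unmoderated variances, signal filters at the 25th percentile and the median, quantile normalization again, median centring, a fit of all probe sets, the brightest probe set per gene, array weights, the replicate number as a block, and omission of each array.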

Additional observations from a re-analysis of the deposited data

Results flagged for a closer look

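Among 30 groups of 4 arrays (7 connexins, 5 other connexins and 3 pannexins, each with HDACI and vehicle), 2 held an array far from the rest of its group, where chance marks about 1 in 20. For Gjb2, vehicle replicate 1 read 7.28 against 7.47 to 7.50 on the other vehicle arrays, and without it the log2 fold change was 0.47 (unadjusted p = 0.00632 from limma). For Panx3, the outlying array was HDACI replicate 2 at 6.44, where the remaining HDACI arrays had 6.63 to 6.65.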

How the results depend on the processing

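Among the alternatives that kept Gjb2, its log2 fold change ran from 0.42 to 0.63 and its adjusted p from 0.377 to 0.901, so none brought it past adjustment (limma). The count of the 7 connexins with an unadjusted p under 0.01 was 1 and became 0 with no moderation and, as Gjb2 was filtered out, among genes above the median of mean signal. With each array left out it was 1 throughout. For the other connexins and pannexins the count of 1, Gja6, became 0 with trend and robust settings, in the fit with a replicate block, and with both filters, which remove Gja6. Leaving out each array gave 0 to 1. For connexin partners the count of 0 became 1, Ccn3, with the replicate block, and 0 to 1 with each array left out, the 1 being Cav1 without HDACI replicate 1. The titles number the arrays within each group and do not say whether equal numbers were paired. The deviations of same-numbered arrays correlated from -0.27 to 0.36, which does not settle it. With the replicate block Gjb2 had an SE of 0.08 and an unadjusted p of 2.90e-04, and Gja6 had 0.05 and 0.0105 (limma). The differences within pairs kept their signs and none passed. With an array left out the exact test cannot reach a p under 0.05, so those settings bear only on sizes. There Gjb2 minus Gja1 ran from 0.25 (without HDACI replicate 2) to 0.52. Gjb6 minus Gja1 ran from -0.17 (without vehicle replicate 1) to -0.04 (without HDACI replicate 4). For arrays, signal over background limits Gja3, Gja6, Gjd4 and Panx3, whose vehicle means lay under the olfactory receptors' 95th percentile.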

Other observations

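Other cell types of the cord showed few called markers. Of 7 measured microglial markers none passed, 6 lay above 0 and the median log2 fold change was 0.07, with a mean signal from 9.92 to 10.20 in HDACI and 9.82 to 10.20 in vehicle cord. Of 6 measured ependymal markers, which cover the ciliated lining of the central canal, none passed and the median was -0.01. Of 4 measured Schwann cell markers none passed, all 4 lay below 0 and the median was -0.13, but the peripheral myelin protein Pmp2 alone ran from 8.10 to 12.15 on HDACI arrays and from 7.98 to 11.92 on vehicle arrays, a spread wider than any difference between groups. Beside these counts, 1.46% of all genes passed in either direction. Ocln, a tight junction protein, stands in both the endothelial and the partner list.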
